A study of Mus musculus with 5 samples.

Results

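The cells described here are conventional CD4 T cells that share their T cell receptor (TCR) with at least 1 other captured cell. They were chosen by values read from the same libraries. A barcode needed 200 or more detected genes, no more than 15% of its unique molecular identifiers (UMIs) from mitochondrial genes, at least 1 UMI of Cd4 and of a Cd3 chain, no UMI of Cd8a, Cd8b1 or Foxp3, and fewer than 2 UMIs of the cycling genes Mki67, Top2a and Birc5 together. It also needed a TCR beta (TRB) contig, and a clonotype in the deposited table that was held by at least 2 barcodes with a TRB contig. Of 9835 barcodes, 120 met this rule, 3 of them in the control library and 117 in the anti-CTLA-4 library. They are called expanded CD4 cells below. The same CD4 cells with a clonotype held by 1 barcode, 35 in the control and 294 in the anti-CTLA-4 library, are called single CD4 cells and serve as the comparison. The clonotype and the gate genes chose the members, so the share of expanded cells and the levels of Cd4, Cd3, Cd8, Foxp3 and cycling genes are given as descriptions. Apart from the mitochondrial share and the number of detected genes, no other gene entered the rule. The rule itself was set with earlier results of these data known, and Cxcr6 was named as a marker.

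All animals were BALB/c mice, 6 weeks old, that carried CT26, a colon carcinoma line of mouse, under the skin. In the treated group an antibody against CTLA-4 (9H10) was injected intraperitoneally at 100 µg on days 5, 8 and 11, and in the control group phosphate-buffered saline. Day 13 was the day of collection, after which the material was digested with a mouse tumour kit and 5000 cells were targeted on the 5' immune profiling system. The labels call the material only tissue and do not say how many animals were pooled. Each treatment had 1 expression library and 1 TCR library, so no difference below has a replicate check. Intervals are at the 95% level, reflect counting error alone, and are too narrow where cells of 1 clonotype share their state.

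CD4 T cells recognise peptides on MHC class II molecules through a receptor of an alpha and a beta chain, and the chains' CDR3 loops are made anew in each developing cell by joining V, D and J segments. Cells with the same receptor as a rule descend from a common ancestor, and a clonotype found in several cells has divided. CTLA-4 is an inhibitory receptor that T cells raise after activation and that competes with the costimulatory receptor CD28 for its ligands. Naive CD4 cells circulate through lymph nodes under Klf2, S1pr1 and Ccr7, whereas activated cells in tissue lose these and gain receptors such as the chemokine receptor Cxcr6.

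Expanded cells made up 28.5% of the 411 conventional CD4 cells with a TRB contig in the anti-CTLA-4 library (interval 24.2 to 33.1%, Clopper-Pearson) and 7.89% of 38 in the control library (1.66 to 21.4%). The TCR libraries differed in size, with 1529 barcodes with a TRB contig in the anti-CTLA-4 library and 282 in the control. Of the gated conventional CD4 cells, 75.1% of 547 after anti-CTLA-4 and 73.1% of 52 in the control had a TRB contig. When the larger library was cut to 282 barcodes, the expected share was 11.7%, which lies within the control's interval. A difference was therefore not detectable at the control's number of barcodes. Over all cell types, the expression libraries held 86478313 UMIs in 5649 control barcodes and 19989467 in 4186 barcodes after anti-CTLA-4. The CD4 cells went the other way, with lower medians in the control. After anti-CTLA-4, expanded CD4 cells had a median of 4335 UMIs (1922 to 14814) and single CD4 cells a median of 3509 (1120 to 22485). In the control the medians were 2351 for expanded and 2303 for single CD4 cells. The expression libraries shared 20 barcodes, and 0 of these belonged to a member.

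The 117 members of the anti-CTLA-4 library came from 57 clonotypes, which held 179 barcodes in all. The other barcodes of these clonotypes were mostly cells that the gate could not place: 47 had no UMI of Cd4 or Cd8, 11 were cycling, 1 was Foxp3-positive, 1 had no Cd3 UMI, 1 had both Cd4 and Cd8, and 1 was a CD8 cell. All 11 cycling cells had a Cd4 UMI and none had a Cd8 UMI. Of the clonotypes, 24 had 1 member that passed the gate, 20 had 2, and 13 had 3 to 7. CD4 and CD8 cells seldom shared a clonotype: of 41 clonotypes with a CD8 cell, 1 also held a conventional CD4 member. That clonotype, named clonotype7, had 5 conventional CD4 members and 1 CD8 cell. Before the cycling gate, 13 of 130 CD4 cells in expanded clonotypes were cycling (10%, 5.43 to 16.5%), against 6 of 300 in single clonotypes (2%, 0.737 to 4.30%), and these cells are in neither set below.

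**Figure D1:**
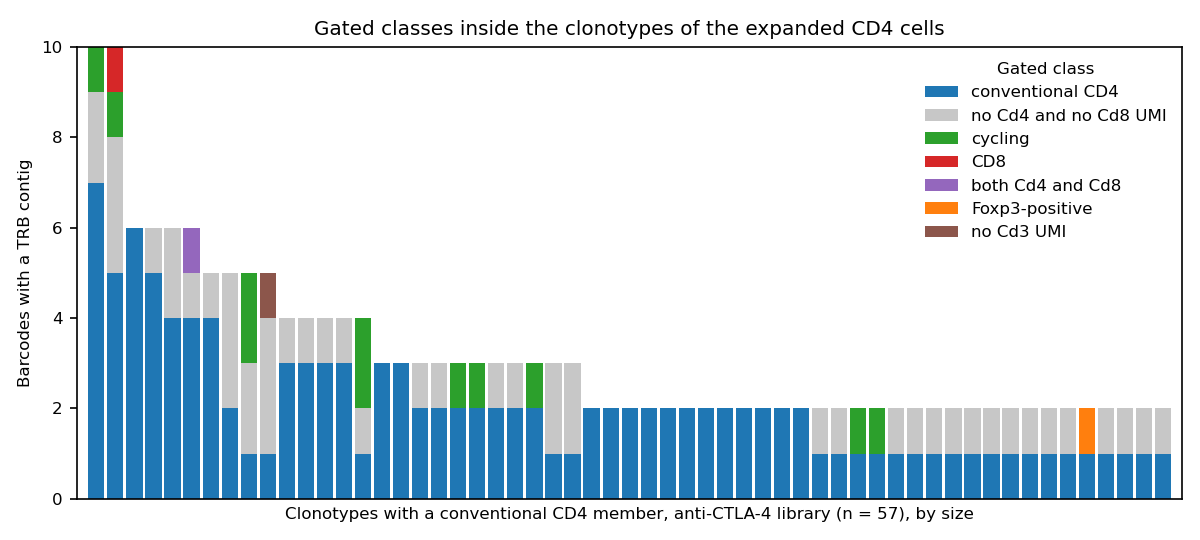
Barcodes with a TRB contig (vertical axis) in each of the 57 clonotypes of the anti-CTLA-4 library that hold an expanded CD4 cell, ordered by size along the horizontal axis and coloured by gated class. The 2 largest clonotypes hold 10 barcodes, and the single CD8 cell (red) lies in the second bar.

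The receptor sequences of the largest clonotypes are shown because several results below rest on them. The largest by members was clonotype8, with 7 members of 10 barcodes. The next, clonotype18, had 6 members. Each line gives the CDR3 nucleotides 5′ to 3′ from the deposited contigs. Capitals mark the junction, the bases between the V end (left) and the J end (right) that most other CDR3s of the same V or J gene share.
clonotype8 TRB (TRBV5, TRBJ2-1): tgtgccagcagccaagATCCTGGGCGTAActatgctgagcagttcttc
clonotype8 TRA (TRAV6-5, TRAJ40): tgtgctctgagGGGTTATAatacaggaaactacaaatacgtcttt
clonotype18 TRB (TRBV10, TRBJ2-7): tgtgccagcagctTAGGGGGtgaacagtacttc
clonotype18 TRA (TRAV9-1, TRAJ43): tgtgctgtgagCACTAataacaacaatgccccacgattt
The junction took up 13 of the 48 beta bases in clonotype8 and 7 of the 33 in clonotype18.

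Some expanded clonotypes encoded the same beta CDR3 by different nucleotides. Among the 1596 possible pairs of the 57 clonotypes, 3 had the same beta V gene and the same CDR3 amino acids with other nucleotides, or 18.8 per 10000 pairs. Pairs of an expanded and a single clonotype did so in 2 of 16758 cases (1.19 per 10000) and pairs of single clonotypes in 1 of 43071 (0.232 per 10000). The pairs of an expanded and a single clonotype were clonotype48 with clonotype725 and clonotype74 with clonotype407. The pair of single clonotypes was clonotype724 with clonotype725. These belong to receptor groups described below that include expanded clonotypes, so the 3 rates do not count separate receptors. These are descriptions of few pairs, and no test was made. In the first pair, clonotype34 with 3 members and clonotype88 with 1, capitals mark every base at which the 2 differ.
clonotype34 TRB (TRBV1, TRBJ2-4): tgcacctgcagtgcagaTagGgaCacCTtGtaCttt
clonotype88 TRB (TRBV1, TRBJ1-3): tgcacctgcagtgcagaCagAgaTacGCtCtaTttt
clonotype34 TRA (TRAV9-1, TRAJ43): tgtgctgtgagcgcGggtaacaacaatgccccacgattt
clonotype88 TRA (TRAV9-1, TRAJ43): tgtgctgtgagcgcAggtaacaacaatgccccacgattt
The beta CDR3s differed at 7 of 36 bases and by 0 amino acids, and they used different J genes. The alpha CDR3s differed at 1 base and by 0 amino acids, so both chains of the 2 clonotypes encoded the same CDR3 loops. The alpha contig of clonotype34 rested on 1 UMI and that of clonotype88 on 3. In the next pair, clonotype73 with 2 members and clonotype74 with 1 member, the beta CDR3s differed at 3 bases and by 0 amino acids, and the alpha CDR3s at 2 bases and by 1 amino acid.
clonotype73 TRB (TRBV13-1, TRBJ1-4): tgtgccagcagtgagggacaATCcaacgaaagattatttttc
clonotype74 TRB (TRBV13-1, TRBJ1-4): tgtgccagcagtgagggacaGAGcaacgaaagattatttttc
clonotype73 TRA (TRAV4-3, TRAJ9): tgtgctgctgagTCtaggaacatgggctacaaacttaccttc
clonotype74 TRA (TRAV4-3, TRAJ9): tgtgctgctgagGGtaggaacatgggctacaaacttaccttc
Both members of clonotype73 carried 2 TRB and 2 TRA contigs. Its other beta and alpha CDR3s (TRBV10 with TRAV13-1) had the same nucleotides as those of clonotype407, a single CD4 cell. The barcode of clonotype407 held 2 TRB contigs and 1 TRA contig. Its second beta CDR3 (TRBV13-1, TRBJ1-4) differed from that of clonotype74 at 3 bases and by 0 amino acids, as did that of clonotype73. The third pair, clonotype50 and clonotype104 with 2 members each, differed at 1 beta base and by 0 amino acids. Its alpha chains differed by 1 amino acid and were assigned to TRAV9N-4 and TRAV9-4, near-identical copies of a V gene whose assignment is uncertain.

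A group of related receptors also crossed from expanded to single cells. The beta CDR3 of clonotype48, with 2 members and 1 cycling cell, was found with the same nucleotides in the single CD4 cell of clonotype724. It was found with 1 changed base in the single CD4 cell of clonotype725. All 3 paired it with an alpha chain of TRAV4-3 and TRAJ18. The same beta nucleotides stood in clonotype143 of the control library, a barcode with UMIs of Foxp3, Cd4 and Cd8b1 that was gated as Foxp3-positive. Capitals mark the bases that are not the same in all 4.
clonotype48 TRB (TRBV10, TRBJ2-5): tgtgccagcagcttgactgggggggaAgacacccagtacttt
clonotype724 TRB (TRBV10, TRBJ2-5): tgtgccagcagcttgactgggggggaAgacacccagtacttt
clonotype725 TRB (TRBV10, TRBJ2-5): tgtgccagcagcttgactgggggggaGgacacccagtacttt
control clonotype143 TRB (TRBV10, TRBJ2-5): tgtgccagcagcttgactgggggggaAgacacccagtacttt
clonotype48 TRA (TRAV4-3, TRAJ18): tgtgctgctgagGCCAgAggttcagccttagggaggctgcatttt
clonotype724 TRA (TRAV4-3, TRAJ18): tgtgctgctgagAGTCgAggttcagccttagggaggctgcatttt
clonotype725 TRA (TRAV4-3, TRAJ18): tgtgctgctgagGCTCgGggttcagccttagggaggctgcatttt
control clonotype143 TRA (TRAV4-3, TRAJ18): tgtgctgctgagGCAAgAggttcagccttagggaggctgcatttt
Relative to clonotype48, the alpha CDR3 of clonotype724 differed by 1 amino acid, and those of clonotype725 and of control clonotype143 by 0, at nucleotide edit distances of 3, 3 and 1. Each of these contigs had at least 7 UMIs, and none of the 4 clonotypes had a barcode that occurred in the other library. A further single cell, clonotype566, had the same nucleotides in both chains as clonotype49, whose 3 barcodes each carried 2 alpha chains. Cells that the rule calls single can therefore hold an expanded receptor.

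Segment use was spread over many genes. TRBV1 and the merged call TRBV12-2+TRBV13-2 each led in 9 of the 57 clonotypes (15.8%, 7.48 to 27.9%), TRBV2 in 7 and TRBV13-1 in 6, and TRBV1 held 9.52% of single clonotypes. TRBJ2-7 was used in 10, TRBJ2-4 in 9 and TRBJ2-5 in 8. The median beta CDR3 had 14 amino acids in both sets. None of the 57 clonotypes joined TRAV11 to TRAJ18, the alpha chain of invariant natural killer T cells. Of these members, 81 had 1 alpha and 1 beta chain, 23 had no alpha chain, 8 had 2 alpha chains and 1 beta chain, 3 had 1 alpha chain and 2 beta chains, and 2 had 2 of each.

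Expanded and single CD4 cells of the anti-CTLA-4 library differed in many genes. UMIs were summed over the cells of each set and divided by the set's total, and this level is given as UMIs per 10000. A gene was called where the ratio of levels was at least 1.5-fold and its interval excluded 1. Of 7155 genes with at least 20 UMIs over both sets, 689 were higher in expanded cells (9.63%) and 497 were lower (6.95%). The median log2 ratio of all genes was 0.10. Ribosomal protein genes took 23.5% of UMIs in expanded and 30.6% in single cells, and this moved the scale. With ribosomal, mitochondrial and receptor segment genes left out of the total, 424 genes were higher and 701 lower, so that the higher share of all calls went from 58.1% to 37.7%, and with ratios centred on the median gene it was 44% (491 higher and 625 lower). Of the gate genes, Cd4 and Cd3e were not called and Cd3g was 1.55-fold higher (1.40 to 1.70), with Cd4 at a level of 4.59 in expanded and 4.17 in single cells (ratio 1.10, interval 0.943 to 1.28) and Cd3e at 11.6 and 9.69 (1.2, 1.09 to 1.32).

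Several chemokine receptors were higher in expanded than in single cells. Cxcr6, the receptor for CXCL16 on activated and tissue-homing T cells (mouse chromosome 9, 123806475 to 123811760, GRCm38), was named as a marker of these cells and had 899 UMIs in 88.0% of expanded cells and 787 UMIs in 32.0% of single cells. Its level was 16.2 against 6.32, a ratio of 2.57 (2.33 to 2.83), and 51 of the 57 clonotypes had a UMI. After every cell was thinned to 1000 UMIs, 66.7% of expanded (57.4 to 75.1%) and 23.8% of single cells (19.1 to 29.1%) kept a Cxcr6 UMI. Macrophages of the same library, which should lack the gene, gave 0.427%, so both shares lay above this background. Cxcr6 was thus common in the members, and 32.0% of the cells that the rule calls single carried it too. Cxcr3, the receptor for interferon-induced chemokines, had a ratio of 4.20 (3.16 to 5.62) with a UMI in 43.6% against 12.6% of cells. Ccr2, a receptor for inflammatory monocyte chemokines, had a ratio of 2.87 (2.26 to 3.65). After thinning, a Ccr2 UMI was found in 28.7% of expanded CD8 cells (22.6 to 35.5%) and 21.5% of Foxp3-positive cells (14.1 to 30.5%) of the library as well, so the receptor was not particular to the members. Over the list of chemokine receptors, 6 of 11 measured members were higher and 2 lower, with a median log2 of 0.85. When only cells with a Cxcr6 UMI were compared, which is described below, 3 of 11 were higher and 0 lower. Of 9 measured genes of tissue residency and retention, Ccr2, Cxcr6, Itgb1 and Rgs1 were higher, and Cd69, which holds cells in tissue, was lower at 0.576 (0.398 to 0.816).

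Most measured inhibitory and costimulatory receptors were higher in expanded cells. Pdcd1, which encodes PD-1, had a level of 3.27 in expanded and 0.948 in single cells (3.45-fold, 2.72 to 4.38), with a UMI in 46.2% against 14.6% of cells. Ctla4, the target of the antibody (chromosome 1, 60887000 to 60915832), had 4.13 against 1.28 (3.24-fold, 2.63 to 3.99), with a UMI in 64.1% against 23.8% of cells. Both genes are induced when T cells are activated. Tigit, another inhibitory receptor, was 2.21-fold higher (1.87 to 2.61), and Havcr2, which encodes TIM-3, was 2.01-fold higher (1.23 to 3.28). Lag3 was not called at 1.35 (0.882 to 2.04), and stood at 0.750 without clonotype8, the clonotype with most members. Of 10 measured inhibitory and exhaustion members 7 were higher, and Tox, a factor of exhausted T cells, was lower at 0.603 (0.358 to 0.975). The 7 included Tnfrsf9, which the costimulatory list also holds. They also included the ectonucleotidase Entpd1, with 15 UMIs in clonotype8 and 10 in the other expanded cells. Among costimulatory genes 8 of 12 were higher and 1 lower, and among cells with a Cxcr6 UMI 1 of 12 was higher (Cd27) and 1 lower (Cd40lg), with a median log2 of -0.04. Icos had a level of 10.2 against 4.72 (2.16-fold, 1.92 to 2.43) and a UMI in 88.0% against 45.2% of cells. Tnfrsf4, which encodes OX40, was 1.90-fold higher and Tnfrsf9, which encodes 4-1BB, 1.62-fold. Cd40lg, the helper ligand for B cells, was not called at 0.884 (0.682 to 1.14).

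Genes of naive and recirculating cells were lower. Among the 13 that were measured, 9 were lower and 0 higher, with a median log2 of -1.43. They included Bach2, Ccr7, Dapl1, Foxp1, Klf2, Lef1, S1pr1 and Tcf7. Klf2, which drives the exit receptor S1pr1, had 54 UMIs in expanded and 615 in single cells, a level of 0.975 against 4.94 (ratio 0.197, 0.146 to 0.261). Its UMIs lay in 18 expanded cells of 16 clonotypes, and the 3 members of the related clonotype73 and clonotype74 shown above had 2, 12 and 10 of them. S1pr1 stood at 0.314 (0.219 to 0.440), and the transcription factors Lef1 at 0.329 and Tcf7 at 0.580. Ccr7 stood at 0.466, and 37.8% of its UMIs in expanded cells came from 1 cell that is described below. Without cells that held an immunoglobulin contig or markers of another cell type it stood at 0.269. Other large differences in this direction were those of Rflnb (13 against 379 UMIs, ratio 0.0771), Trib2 (8 against 194, 0.0926), Thada (1 against 78), Cd55 (1 against 68), Ifngr2 (3 against 95), Igfbp4 (10 against 173), and the interleukin-6 receptor chains Il6st (1 against 66) and Il6ra (1 against 59). Each of these genes had a UMI in under 7% of expanded cells and in over 15% of single cells.

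**Figure D2:**
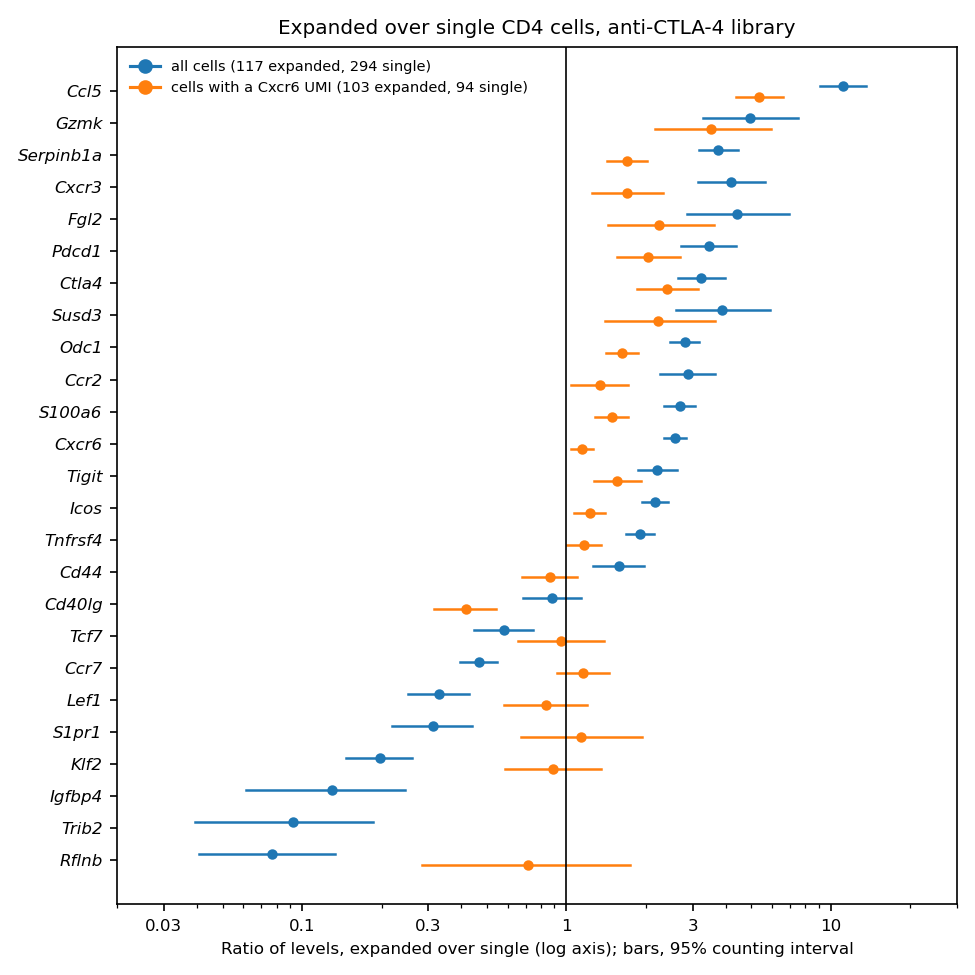
Ratio of levels in expanded over single CD4 cells of the anti-CTLA-4 library (horizontal log axis) for 25 genes, with 95% counting intervals as bars, for all cells (blue) and for cells with a Cxcr6 UMI (orange; genes under 20 UMIs there have no point). The blue points for Klf2, S1pr1, Lef1 and Ccr7 lie below 1 while the orange intervals include 1, and Pdcd1, Ctla4, Ccl5 and Gzmk lie above 1 in both, with most Ccl5 and Gzmk UMIs of the expanded cells in clonotype8.

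Cytotoxic and type 1 genes were higher, though part of this came from 1 clonotype. Of 14 measured cytotoxicity genes, 10 were higher and 0 lower (median log2 1.14). Ccl5, a chemokine of cytotoxic lymphocytes, had 617 UMIs in 21.4% of expanded cells and 125 UMIs in 5.44% of single cells (11.1-fold, 9.14 to 13.6). However, 76.5% of the expanded cells' Ccl5 UMIs lay in clonotype8, and without that clonotype the ratio was 2.83. In cells with exactly 1 alpha and 1 beta chain it was 42.6. Gzmk, a granzyme of memory-like effector cells, was 4.93-fold higher (3.28 to 7.53), and 1.97-fold without clonotype8. Gzmb had 74 against 12 UMIs (13.9-fold) and 7.32-fold without clonotype8. Outside clonotype8 its 36 UMIs lay in 6 of 110 expanded cells, 22 of them in the 2 members of clonotype102. Gzma rested on 1 expanded cell that held 35 of its 38 UMIs. Nkg7, a cytotoxic granule protein, was 2.54-fold higher (1.75 without clonotype8). Fasl, Cst7, Ctsw, Klrd1 and Serpinb9 completed the list of those that were higher.

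Of 14 measured Th1 genes 8 were higher and 3 lower (median log2 0.96). The lower ones were Ccl3, Ccl4 and Tnf, and Ifng was not called. In single cells, 1 cell held all 48 Ccl3 UMIs and 1 cell held 65 of the 91 Ccl4 UMIs. Of the higher ones, Eomes had all 26 UMIs of the expanded cells, and Ccl5 76.5% of them, in clonotype8. Stat4, Il12rb2, Il18r1 and Il18rap, which carry the signals of interleukin-12 and interleukin-18, were all higher, with Stat4 at 1.94 (1.57 to 2.40), Il12rb2 at 3.05 (2.41 to 3.88) and Il18r1 at 2.72 (2.16 to 3.44). Tbx21, the master factor of Th1 cells, was not called at 1.69 (0.95 to 2.95), nor were Gata3 of Th2 cells at 1.42 (1.04 to 1.92) and Bcl6 of follicular cells at 1.17 (0.677 to 1.99). Cxcr5, the follicle-homing receptor, had 1 UMI in expanded and 5 in single cells. Il17a of Th17 cells was below 20 UMIs. Of 8 measured follicular helper genes 3 were higher and 1 lower (median log2 0.39). Of 10 Th2 genes 3 were higher and 4 lower (median log2 0.38). The higher ones were Ccr8, Maf and Il1rl1, the interleukin-33 receptor, which had 26 against 9 UMIs (6.49-fold, 2.95 to 15.7), and the lower ones were the cytokine genes Il4, Il5 and Il13 and the receptor gene Il4ra.

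Genes shared with regulatory T cells were in part higher, with 6 of 11 measured members higher and 1 lower (median log2 0.70). The 6 were Ctla4, Entpd1, Tigit, Tnfrsf4, Tnfrsf9 and Tnfrsf18, which activated conventional cells also express, and the lower one was Ikzf2, a factor of regulatory cells. Of 11 measured genes of the BCL2 family, which sets cell survival, 5 were higher and 1 lower (median log2 0.32). The higher ones were Bcl2l1, which encodes BCL-XL, at 2.78, the death-promoting Bak1 and Pmaip1, and Bcl2a1b and Bcl2a1d, near-identical copies whose counts are uncertain. The lower one was Bcl2 at 0.496. Among cells with a Cxcr6 UMI, Pmaip1 alone of the 11 was called, as higher. Among cytokine receptors 3 of 14 were higher and 4 lower (median log2 -0.32), with Il2rb, the interleukin-2 receptor beta chain, at 2.17 and Il4ra at 0.17.

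Adhesion and cytoskeleton genes were higher in 13 of 19 cases and lower in 0 (median log2 0.78). Among cells with a Cxcr6 UMI, 1 of the 19 was higher (Itgb1) and 1 lower (Id3), with a median log2 of 0.04. S100a4 and S100a6, calcium-binding proteins of motile cells, were 2.58-fold (2.27 to 2.92) and 2.68-fold (2.35 to 3.06) higher. Lgals1, a galectin of activated T cells, was 2.23-fold and Crip1 2.21-fold higher. Serpinb1a, an inhibitor of neutrophil and granule proteases (chromosome 13, 32842092 to 32851185), had a level of 6.64 against 1.78 (3.74-fold, 3.16 to 4.44). It was found in 47.9% of expanded and 16.7% of single cells. Odc1, the entry enzyme of polyamine synthesis, was 2.81-fold higher (2.47 to 3.18), Susd3 was 3.88-fold (2.59 to 5.87), and Fgl2 was 4.42-fold (2.87 to 6.95). The glycolytic enzymes Gapdh and Ldha were 1.60-fold and 1.55-fold higher, and 5 of 17 hypoxia and glycolysis genes were higher and 0 lower. Among cells with a Cxcr6 UMI, 0 of 16 were higher and 2 lower (Hilpda and Slc2a3), with a median log2 of -0.24. With ribosomal, mitochondrial and receptor segment genes left out of the total, Gapdh stood at 1.44 and Ldha at 1.40, below the fold used for a call, and Gapdh stood at 1.45 without clonotype8.

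Several genes of recent stimulation ran the other way. Of 11 antigen response factors 5 were lower and 1 higher (median log2 -0.65), with Myc at 0.281 and Egr1 at 0.236. The other lower ones were Irf4, Cd69 and Tox, and the higher one was Nfatc1. Batf, Nfkbid, Nr4a1, Nr4a2 and Nr4a3 were not called. Of 13 type I interferon response genes 7 were lower and 1 higher (median log2 -0.57), with Isg15 at 0.441 (0.321 to 0.595). Its UMIs were concentrated: among cells with a Cxcr6 UMI, 1 cell held 52.6% of those in single and 1 cell 45.65% of those in expanded cells. There the Isg15 ratio was 0.2995, while 19.42% of expanded and 19.15% of single cells had an Isg15 UMI. Genes of the dissociation and heat stress list, which respond to tissue digestion, were lower in 6 of 19 cases and higher in 0 (median log2 -0.36), with Zfp36 at 0.257 (0.182 to 0.354). Handling of the tissue can move the last list, and its part in these differences was not tested.

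Of 15 measured cytokine and ligand genes 5 were higher in expanded cells (Fasl, Ltb, Tgfb1, Tnfsf11 and Tnfsf8) and 6 were lower (Csf2, Il13, Il2, Il4, Il5 and Tnf), with a median log2 of -0.17. UMIs of several of the lower ones were concentrated in a few single cells. Il13 had 10 UMIs in 2 expanded cells and 837 UMIs in 7 single cells, of which 429 lay in 1 cell. Il4 had 0 UMIs in expanded and 224 UMIs in 5 single cells, and Il5 had 1 UMI against 105 in 4 cells. Together, 10 single cells held a UMI of Il4, Il5 or Il13, and 1 held all of them. Il2 had 2 UMIs in expanded cells against 32 in 3 single cells. Csf2 had 81 UMIs in 15 expanded cells and 535 in 21 single cells, 314 of them in 1 cell. Tnf had 19 UMIs in 13 and 115 in 31 cells, and Ifng had 36 in 14 and 89 in 13. The share of cells with a Csf2 or Ifng UMI was thus higher in expanded cells (12.8% against 7.14% and 12.0% against 4.42%) while the levels were not, and no order is read from them. Il10 (0 against 3 UMIs) and Il21 (2 against 2) were close to absent at this depth in both sets.

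**Figure D3:**
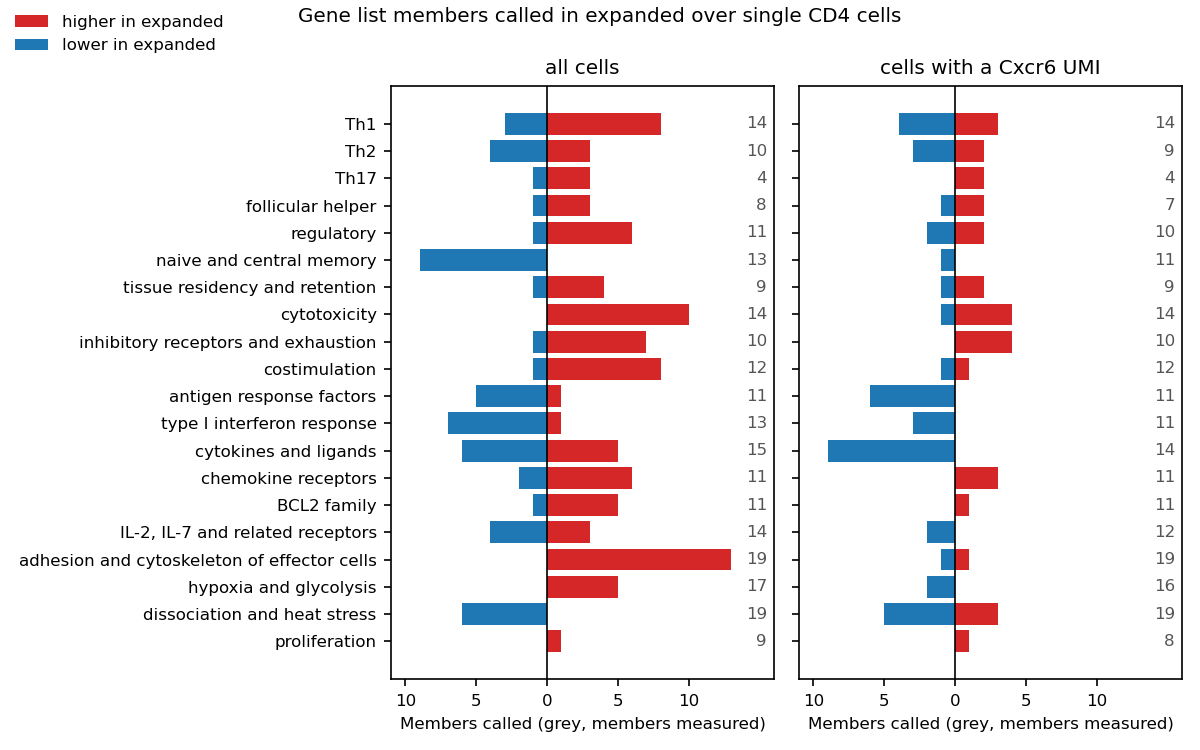
Number of measured members of each gene list called higher (red, to the right) or lower (blue, to the left) in expanded than in single CD4 cells of the anti-CTLA-4 library, for all cells and for cells with a Cxcr6 UMI; grey numbers give the members measured. In all cells 9 of 13 naive genes are lower, and in cells with a Cxcr6 UMI 1 of 11 is.

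Fewer genes differed once cells without Cxcr6 were left out of both sets. Among cells with a Cxcr6 UMI, 103 expanded cells with a median of 4476 UMIs were compared with 94 single cells with a median of 4673. Ribosomal protein genes took 23.3% and 23.8% of their UMIs. This comparison was chosen after the first results were seen. Of 5571 measured genes, 165 were higher in expanded cells (2.96%) and 220 lower (3.95%). The 94 single cells stand against 294 before the restriction, and smaller sets have wider intervals. The part of this in the smaller number of calls was not tested. Klf2 stood at 0.887 (0.583 to 1.34), Lef1 at 0.833, Tcf7 at 0.954, Ccr7 at 1.15 and S1pr1 at 1.14, and the naive list had 1 of 11 members lower and 0 higher (median log2 -0.07). None of these 5 genes was called.

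Of 10 measured inhibitory genes, 4 were higher and 0 lower among cells with a Cxcr6 UMI (median log2 0.45), against 7 higher in all cells. The 4 were Ctla4, Pdcd1, Tigit and Cd200r1. Havcr2 stood at 0.974 (0.590 to 1.61), and Tnfrsf9, which the costimulatory list holds as well, at 0.792 (0.672 to 0.933). Ctla4 was 2.40-fold higher (1.85 to 3.13), with a UMI in 63.1% of expanded and 41.5% of single cells. Pdcd1 was 2.04-fold higher (1.56 to 2.69), with a UMI in 48.5% and 35.1%. Tigit stood at 1.56, Cxcr3 at 1.70, Serpinb1a at 1.69, Susd3 at 2.23, Odc1 at 1.62, Gzmk at 3.51 and Ccl5 at 5.36, all called. Clonotype8 held 472 of the 609 Ccl5 UMIs in these expanded cells, and 86.0% of the 114 Ccl5 UMIs in the single cells lay in 1 cell. Without clonotype8, a setting also chosen after results were seen, 96 expanded cells were left, and Ccl5 at 1.32 (1.02 to 1.71), Gzmk at 1.35 (0.739 to 2.48) and Tigit at 1.37 (1.11 to 1.70) were not called. Ctla4 at 2.30 (1.77 to 3.02), Pdcd1 at 1.63 (1.23 to 2.19), Cxcr3 at 1.82, Serpinb1a at 1.84, Susd3 at 2.32, Odc1 at 1.63 and Gzmb at 3.96 (1.92 to 8.94; 36 against 10 UMIs) were called there. The 36 Gzmb UMIs lay in the 6 expanded cells given above. Over all 5422 genes measured in that setting, 142 were higher and 209 lower. Of the inhibitory list 2 of 9 measured genes were then higher (Ctla4 and Pdcd1) and 1 lower (Entpd1), and the median log2 went to -0.23. Of 14 cytotoxicity genes 2 were higher (Gzma and Gzmb) and 0 lower. Among all cells with a Cxcr6 UMI, 9 of 14 cytokines and ligands were lower and 0 higher (median log2 -1.70). Csf2 stood at 0.152, Tnf at 0.179 and Cd40lg at 0.416, and Il2ra, the high-affinity interleukin-2 receptor chain, at 0.339. In single cells with a Cxcr6 UMI, 37.3% of the Cd40lg, 58.7% of the Csf2, 58.4% of the Tnf, 84.4% of the Il4 and 93.5% of the Il2 UMIs lay in 1 cell for each gene, and no order is read from the last 4. The Th1 list lost its direction, with 3 of 14 members higher and 4 lower (median log2 -0.06).

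Most of the difference in Cxcr6 lay between clonotypes of 1 and of 2 barcodes. After thinning to 1000 UMIs, Cxcr6 was found in 23.8% of single cells, in 62.8% of the 43 members from clonotypes of 2 barcodes, in 62.9% of the 35 from clonotypes of 3 to 4, and in 74.4% of the 39 from clonotypes of 5 or more. The intervals of the 3 larger sizes overlapped. Pdcd1 went from 3.74% to 18.6%, 22.9% and 25.6%, and Ctla4 from 8.84% to 23.3%, 20% and 30.8%. Klf2 had 29.6%, 11.6%, 2.86% and 2.56%, and S1pr1 23.1%, 6.98%, 11.4% and 2.56%. Median depth was 3509, 4476, 4214 and 4175 UMIs in the 4 sizes.

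**Figure D4:**
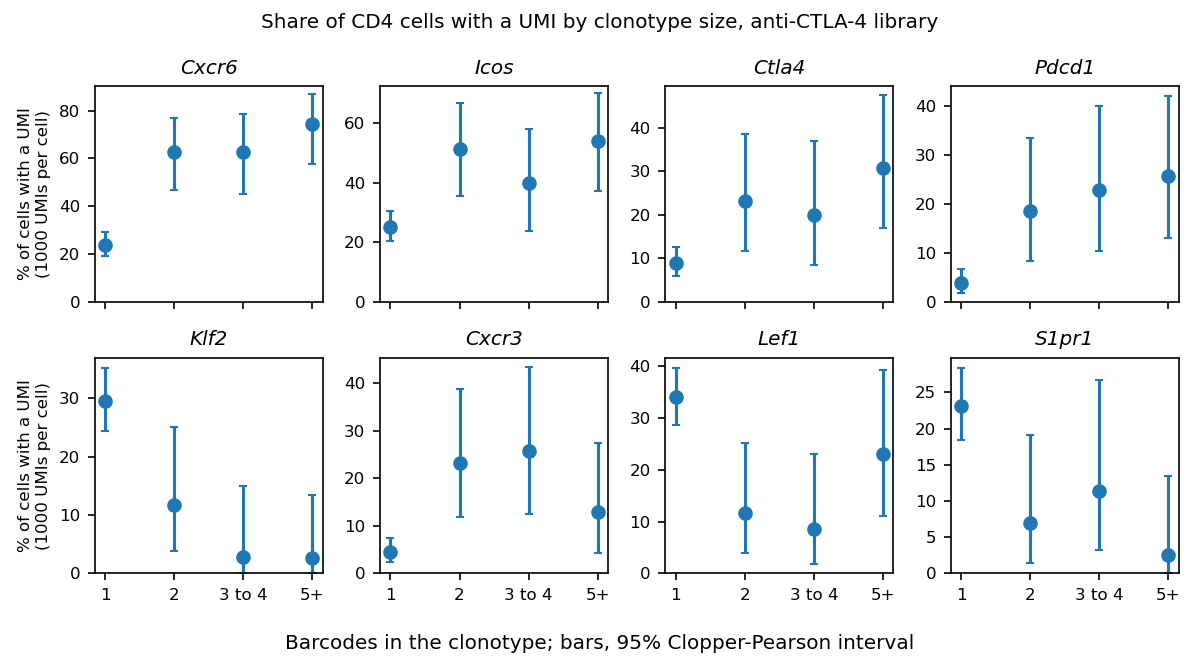
Share of CD4 cells of the anti-CTLA-4 library with a UMI of each gene after thinning every cell to 1000 UMIs (vertical axis, %), by the number of barcodes in the cell's clonotype (horizontal axis); points are shares and bars are 95% Clopper-Pearson intervals. For Cxcr6 the share goes from 23.8% at size 1 to 62.8% at size 2, and for Klf2 from 29.6% to 11.6%.

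The 13 clonotypes with at least 3 members held 53 of the 117 cells and differed among themselves. Cxcr6 was uniform, with levels from 10.2 (clonotype23) through a median of 16.9 to 28.9 (clonotype39), all above the 6.32 of single cells. Icos ranged from 2.71 to 19.5 with a median of 10.4, and S100a4 from 3.74 to 16.3 with a median of 9.40. Klf2 had its highest level at 1.06 and a median of 0, and no clonotype reached the 4.94 of single cells. Checkpoint genes varied more. Pdcd1 had a median of 3.45, from 0 in clonotype43 to 10.5 in clonotype18, and 8 of the 13 lay above single cells. Ctla4 had a median of 3.42, with 0 in clonotype25, and 11 of 13 lay above. Serpinb1a reached 21.7 in clonotype25 and 0 in clonotype22.

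Cytokines and effector genes were highest in different clonotypes. Csf2 was highest in clonotype18 at 13.4, the clonotype with the highest Pdcd1 level. Ifng was highest in clonotype19 at 8.42, and that clonotype also had the highest level of Bhlhe40, a factor that helps T cells make cytokines, at 20.8. Il18r1 was highest in clonotype43 at 18.0 and Il12rb2 in clonotype20 at 11.4. Ccr8, a chemokine receptor of regulatory and skin-homing T cells, was highest in clonotype22 at 7.48. These clonotypes hold 3 to 6 members each, so a level can rest on 1 cell. In clonotype18, 1 cell held 30 of the 33 Csf2 UMIs, and in clonotype19, 1 cell held 17 of the 19 Ifng UMIs. These were 37.0% of all Csf2 UMIs and 47.2% of all Ifng UMIs in expanded cells.

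**Figure D5:**
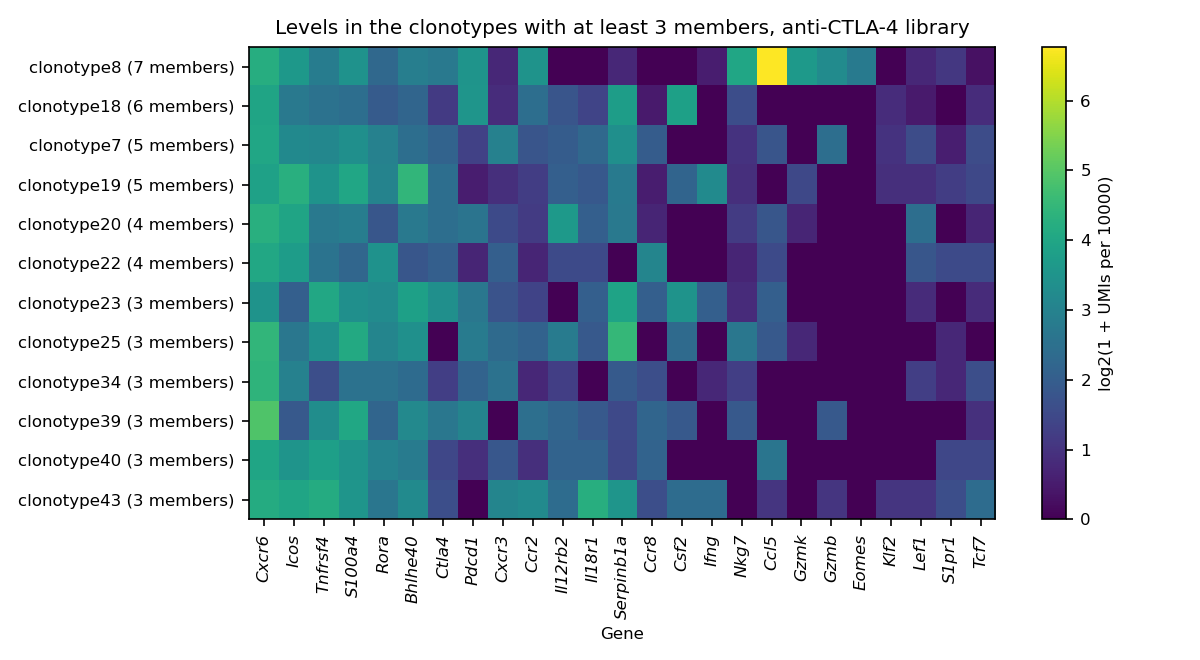
Levels of 25 genes (columns) in 12 of the 13 clonotypes with at least 3 expanded CD4 members in the anti-CTLA-4 library (rows), coloured as log2 of 1 plus UMIs per 10000. Cxcr6 is filled in every row, Klf2 is dark in most rows, and clonotype8 alone is bright for Ccl5, Gzmk and Eomes.

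Clonotype8, whose CDR3s were printed first above, stood apart from the other 110 expanded cells. All 7 members had Ccl5, with 472 UMIs and a level of 108 against 145 UMIs and 2.84 in the other expanded cells (38.1-fold, 31.5 to 46.2). Eomes, the T-box factor of cytotoxic and memory T cells, had 26 UMIs in 6 of the 7 cells and 0 UMIs in the other 110. Ret, a receptor tyrosine kinase, had 32 UMIs in 5 of the 7 and 0 in the others. Gzmk was 20.2-fold higher (12.5 to 33.0), Gzmb 12.3-fold, Lag3 11.1-fold (5.61 to 21.9), Nkg7 6.71-fold (4.88 to 9.16), the ectonucleotidase Entpd1 17.5-fold, and the transcription factor Maf 11.7-fold. In contrast, Il12rb2, Il18r1, Ccr8, Csf2 and Klf2 had 0 UMIs in the 7 cells. Cxcr6 did not set it apart, at 17.6 against 16.1. Of the 10 barcodes of clonotype8, 0 were gated as CD8 cells. These genes were picked for their difference within the library, and the ratios are a description of 1 clonotype.

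A member of clonotype27 carried genes of another cell type. This barcode had 14814 UMIs, the most of any member, with 2 TRB and 1 TRA contigs, 2 UMIs of Cd4 and 4 of Cd3e. It held 119 UMIs of Fscn1 and 73 of Ccr7, genes of mature dendritic cells, and 329 UMIs of Cst3, 76.2% of the Cst3 UMIs of all expanded cells. Its 18 UMIs each of the neighbouring genes Tmem176a and Tmem176b bore on the Th17 list, in which 3 of 4 measured members were higher and 1 lower (median log2 1.46), and the median was -0.23 without the 5% of cells with the most UMIs. In the same setting, Cst3 stood at 1.61 and Fscn1 at 0.539. Dendritic cell markers summed to 5.56 per 10000 in expanded and 4.68 in single cells, and 4 of 10 had 0 UMIs in expanded cells. Whether this barcode holds 2 cells was not tested.

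Markers of other cell types differed between the sets, mostly through a few cells. Of the 10 B cell markers, 5 were measured and 2 were higher, Cd79a and Cd79b, and the list's sum was 5.76 per 10000 in expanded and 6.26 in single cells, with 0 of 10 at 0 UMIs. All Cd79a UMIs in clonotypes of 3 or more members lay in clonotype22. Natural killer cell markers summed to 1.59 and 1.82, with 4 of 10 at 0 UMIs in expanded cells. Macrophage markers summed to 3.85 and 4.50 with 5 of 12 at 0 UMIs in expanded cells, neutrophil markers to 5.05 and 4.87 with 4 of 8 at 0, and keratinocyte markers to 0.343 and 1.85 with 3 of 8 at 0. The sums of the macrophage and neutrophil lists hide genes that went opposite ways. In the neutrophil list, Il1r2, a decoy interleukin-1 receptor, was higher (272 against 302 UMIs, 2.02-fold), whereas S100a8 (1 against 56) and S100a9 (2 against 237) were lower, with 67.9% and 84.4% of the single cells' UMIs in 1 cell. In the macrophage list, Ccr2 was higher, and Apoe (5 against 71), Cd14 (8 against 126) and Lyz2 (30 against 155) were lower. Narrower sets of defining markers summed to 0.866 per 10000 in expanded and 3.21 in single cells for macrophages, 0.0542 and 2.42 for neutrophils, 1.14 and 0.546 for B cells, and 2.35 and 0.185 for dendritic cells, the last mainly from the member of clonotype27. Their part in the gene differences was not tested beyond leaving cells out. Leaving out the 8 expanded and 17 single cells with an immunoglobulin contig or at least 5 UMIs of such markers gave 687 higher and 399 lower genes.

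Set beside other T cells of the library, the expanded CD4 cells resembled expanded CD8 cells in Cxcr6 and differed from them in Ccl5 and Serpinb1a. After thinning to 1000 UMIs, Cxcr6 was found in 66.7% of the 117 expanded CD4 cells, 68.8% of 202 CD8 cells in expanded clonotypes (61.9 to 75.1%) and 1.87% of 107 Foxp3-positive cells (0.227 to 6.59%), after 1 CD8 and 2 Foxp3-positive cells with fewer UMIs were left out. Ccl5 was found in 13.7% (8.02 to 21.3%), 70.3% (63.5 to 76.5%) and 5.61%. Serpinb1a ran against this order, with 27.4% of expanded CD4 (19.5 to 36.4%), 7.92% of CD8 (4.60 to 12.5%) and 2.80% of Foxp3-positive cells (0.582 to 7.98%). Ctla4 was found in 24.8% (17.3 to 33.6%), 19.3% (14.1 to 25.4%) and 50.5% (40.6 to 60.3%). The intervals of expanded CD4 and CD8 cells did not overlap for Ccl5 and Serpinb1a, whereas those for Cxcr6, Ctla4 and Pdcd1 (22.2% and 28.7%) overlapped.

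The control library had 3 members in 2 clonotypes, which allows values but little comparison. Their totals were 1816, 5762 and 2351 UMIs. Cxcr6 had 1, 5 and 1 UMIs and Icos 4, 12 and 6, so all 3 cells carried both genes. Pdcd1 had 0, 1 and 2 UMIs and Ctla4 1, 1 and 0. Klf2, S1pr1, Ccl5, Gzmk, Gzmb, Cxcr3 and Serpinb1a had 0 UMIs in all 3. Between the treatments, 133 of 3864 measured genes were called in expanded cells in either direction (3.44%), with a median log2 of -0.25 for anti-CTLA-4 over control. Hif1a, the oxygen-sensing factor, had 644 UMIs after anti-CTLA-4 and 1 UMI in the control (11.5-fold, 2.06 to 457), and Odc1 had 562 against 0. With 3 control cells from 2 clonotypes, treatment, animal and clonotype cannot be told apart.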

How the data were processed

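Gene expression and TCR libraries of 1 control and 1 anti-CTLA-4 sample were used, and the BCR library of the anti-CTLA-4 sample only to find barcodes with an immunoglobulin contig. Groups were taken from the sample titles. The authors processed reads with Cell Ranger 5.0.0 (per the file headers), and mm10 and GRCm38 are the builds named in the submitters' processing notes. The deposited expression values are UMI counts for each gene in each barcode, without normalization. The deposited receptor tables list, for each contig, its UMI count, clonotype, V and J genes and CDR3. The release of the annotation is not given in the sources used here, nor is the receptor reference.

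UMI counts were summed over the cells of a set and divided by the set's total. Ratios carry exact conditional binomial intervals and shares exact Clopper-Pearson intervals (scipy 1.17.1, numpy 2.4.6, pandas 2.3.3, python 3.11.15), and log2 values had 0.5 UMI added. With 1 library per group there is no test across samples. Shares of cells were also computed after thinning each cell to 1000 UMIs. No doublet caller was run. In its place, the 5% of cells with the most UMIs, and cells with foreign contigs or markers, were left out in turn. On Poisson counts simulated for 7138 genes, 96.3% of intervals covered the true ratio. There 64.6% of 2-fold and 98% of 4-fold differences were called, against 2.72% of unchanged genes. Poisson counts are what the interval assumes, so this checks the computation only. UMIs of the real sets clump in cells and clonotypes, and these rates do not carry over to them.

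Named genes had at least 50 UMIs over both sets and, in the set where they were higher, a UMI in at least 10% of cells and in 5 clonotypes. They are the 10 highest and 10 lowest by the interval bound nearest to 1, with 2 extreme and 2 abundant members of each list and a fixed set of T cell genes. Il12rb2, Il18r1, Il1rl1, Ccr8, Bhlhe40, Il2ra, Hif1a and the genes of clonotype8 were singled out after their values were seen. The members, the gene lists and the rules were chosen with earlier results of these data known. List symbols absent from the files numbered 3. Alternatives changed the cell filters, the clonotype definition, the scaling, the gene filter and the cells compared. A few genes and clonotypes are not reported here. Coordinates come from GENCODE M21 (GRCm38).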

Additional observations from a re-analysis of the deposited data

Results flagged for a closer look

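The BCR library of the anti-CTLA-4 sample, used above only to choose barcodes that were left out in 1 setting, held an immunoglobulin heavy chain contig for 5 of the 117 expanded CD4 cells (4.27%, Clopper-Pearson interval 1.40 to 9.69%). By the limit of 3 counts, 0 of 117 cells would allow 2.56%, which lies within that interval. Among single CD4 cells 8 of 294 had such a contig (2.72%, 1.18 to 5.29%), and the intervals overlap. No BCR library of the control was used here.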

How the results depend on the processing

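The expanded share of CD4 cells after anti-CTLA-4 was 18.0% with at least 3 barcodes per clonotype and 22.6% with size counted over gated CD4 cells only. It was 11.7% when cut to the control's number of barcodes with a TRB contig. With at least 3 barcodes the control had 0 members (0%). Leaving out barcodes with over 10% mitochondrial UMIs or under 500 genes changed no call, with 689 higher and 497 lower genes in each case. The number of higher genes was 1445 with equal weight per clonotype (a setting without intervals), 328 with thinned cells, 424 with ribosomal, mitochondrial and segment genes out of the total, 165 in cells with a Cxcr6 UMI, and 142 in these without clonotype8. The number of lower genes was 1203, 167, 220 and 209 under equal weight, thinning, the Cxcr6 restriction and that restriction without clonotype8. Under clonotypes defined by TRB nucleotides, 12 of the 689 higher genes were called lower, and the member with dendritic genes is the cell that leaves the expanded set there. The treatment comparison gave 34 calls with thinned cells and 77 without each library's largest clonotype, and the cause was not tested.

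The Th1 median was 1.62 with thinned cells and -0.058 in cells with a Cxcr6 UMI. There the naive median was -0.068, the cytotoxicity median 0.18 and the costimulation median -0.043, and without clonotype8 the Th1 median was -0.033, the naive median 0.037, the cytotoxicity median 0.18, the inhibitory median -0.23 and the costimulation median -0.033. The Th17 median was -0.60 with TRB nucleotide clonotypes, -0.38 with 1 TRB and 1 TRA contig, -0.23 without the 5% of cells with most UMIs and -0.24 without cells with foreign contigs or markers. Ratios of named genes changed side under the same settings. With TRB nucleotides Cst3 was 0.400, Fscn1 0.0163, Tmem176a 0.482 and Tmem176b 0.826, and with 1 TRB and 1 TRA contig Fscn1 was 0 and Tmem176a 0.320. With thinned cells Cd79a was 0 and Perp 1.01. Without the 5% of cells with most UMIs Apoe was 1.08, Fscn1 0.539, Lyz2 1.06, Perp 2.59 and Sfn 1.33. Without cells with foreign contigs or markers Apoe was 1.09, Cd14 5.83, Fcer1g 1.70, Fscn1 0.546, Lyz2 1.21, Perp 1.87, Sfn 1.35 and Sparc 1.02. In cells with a Cxcr6 UMI Igfbp4 was 1.0, Havcr2 0.974, Tnfrsf9 0.792, Ccr7 1.15, S1pr1 1.14, Cd44 0.863, Tox 1.37, Izumo1r 1.91, Bcl2a1d (near-identical to its copies) 0.938, Il1r2 0.773, Ltb 0.910, Lyz2 1.08, Rora 0.991, Sparc 1.0, Stat4 0.996 and Tpi1 0.946, and in these without clonotype8 Igfbp4, Izumo1r and Sparc were 1.10, Havcr2 0.848, Tnfrsf9 0.839, Nkg7 0.902, Ccr7 1.22, Tcf7 1.03, S1pr1 1.06, Cd44 0.904, Bcl2a1d 0.965, Il1r2 0.847, Ltb 0.95, Lyz2 1.18, Rgs1 0.951 and Tpi1 0.928.

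The main limits are the single library per group, the 3 control members and the absence of a doublet caller. The gate also rests on single UMIs, and a Cd4 transcript can go undetected at this depth. Of the same clonotypes, 47 barcodes without a UMI of Cd4 or Cd8 stayed outside, and the cause was not tested. A Foxp3 UMI can likewise be missing in a member. No paired analysis was possible because each group had 1 library.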
